A study of Mus musculus with 24 samples.

Results

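Calprotectin is the complex of the proteins encoded by S100a8 and S100a9, and these genes were followed in mouse colon together with 7 genes for receptors on the surface of neutrophils: Csf3r, Cxcr2, Fpr1, Fpr2, Trem1, Clec4d and Clec4e. The 9 genes were chosen by name from the 43280 gene symbols of the count files. RNA-seq of the distal colon was available for 24 libraries from female C.B-17/Icr-scid/scid (SCID) mice, bought at 7 weeks of age, in 6 groups of 4. In 5 of these groups the mice had received CD4+ T cells from BALB/c spleens, activated with Concanavalin A and IL-2, on day 0, and were sampled on day 28. Vehicle mice received 0.5% methylcellulose. Microparticles with a MEK inhibitor, made for enteric delivery, were dosed by mouth each day from day 17 to day 27, at 0.3 mg/kg in MEKi 0.3 mice and 1 mg/kg in MEKi 1 mice. The anti-TNF group was injected with an antibody to TNFa and the Isotype group with an isotype antibody, at 0.1 mg per mouse every 4 days from day 17. The Normal group is labelled as normal mice of the same strain with no treatment. SCID mice lack mature lymphocytes of their own, so all 6 groups share that defect. The labels do not say that the 4 libraries of a group came from separate mice, and the p-values measure the spread between these libraries, which may in part be technical.

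Neutrophils are short-lived granulocytes that leave the blood for inflamed tissue, and calprotectin, which binds calcium, zinc and manganese, makes up a large share of the protein in their cytosol. In the gut, calprotectin shed into the stool is used clinically as a measure of inflammation. The receptors act at successive steps. Csf3r receives G-CSF, which drives the making of neutrophils. Cxcr2 follows CXCL chemokines into tissue, and Fpr1 and Fpr2 sense formylated peptides of bacteria and mitochondria. Trem1 amplifies inflammatory signals through the adapter DAP12, and the C-type lectins Clec4d and Clec4e recognise glycolipids of microbes and signal through the Fc receptor gamma chain. MEK is the kinase that activates ERK, and TNF is a cytokine that many myeloid and epithelial genes respond to. Monocytes and macrophages also transcribe several of these genes, so none of the 9 marks neutrophils alone.

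Of the 9 genes, 6 lie in pairs of neighbours on the genome (build mm10, GENCODE M21). S100a8 lies at chr3:90668978-90670035 on the plus strand and S100a9 at chr3:90692632-90695721 on the minus strand, with 22596 bases between them. Fpr1 (chr17:17876471-17883940, minus strand) and Fpr2 (chr17:17887824-17893952, plus strand) are 3883 bases apart, and Clec4d (chr6:123262111-123275265, plus strand) and Clec4e (chr6:123281789-123289870, minus strand) are 6523 bases apart. Trem1 lies at chr17:48232768-48246924, Csf3r at chr4:126024550-126044440 and Cxcr2 at chr1:74153989-74161246, each on the plus strand. All 9 are protein-coding. Fpr2 overlaps Fpr3 on the same strand, and Trem1 overlaps the pseudogene AC241601.2 on the opposite strand. How reads were assigned there is not given in the sources used here. Fpr3 itself had at most 1 count in any group, summed over its 4 libraries.

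The promoters of S100a8 with S100a9 and of Clec4d with Clec4e are shown, each from 250 bases before to 50 bases after the start site in RefSeq on GRCm38.p6. The first pair are the calprotectin genes. The second holds Clec4e, which had the lowest log2 fold change of the 9 in MEKi 1 against Vehicle and in anti-TNF against Isotype below. Capitals mark matches on either strand to TTNCNNAA, a loose motif of the C/EBP factors, or to GAGGAAG, a motif of PU.1. Both factors are known to direct myeloid genes.
S100a8, chr3:90668821-90669120, plus strand: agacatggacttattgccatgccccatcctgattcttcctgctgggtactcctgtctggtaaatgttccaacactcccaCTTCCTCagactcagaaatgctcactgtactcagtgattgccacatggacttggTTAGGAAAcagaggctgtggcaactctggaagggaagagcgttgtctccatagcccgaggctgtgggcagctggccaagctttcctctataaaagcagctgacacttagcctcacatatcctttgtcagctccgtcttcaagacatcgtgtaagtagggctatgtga
S100a9, chr3:90695672-90695971, minus strand: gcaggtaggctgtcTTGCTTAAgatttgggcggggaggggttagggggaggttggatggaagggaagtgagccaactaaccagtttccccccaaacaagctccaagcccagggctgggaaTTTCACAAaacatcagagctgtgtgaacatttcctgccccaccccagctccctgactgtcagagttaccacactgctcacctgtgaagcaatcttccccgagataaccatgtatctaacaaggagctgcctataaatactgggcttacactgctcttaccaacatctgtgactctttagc
Clec4d, chr6:123261857-123262156, plus strand: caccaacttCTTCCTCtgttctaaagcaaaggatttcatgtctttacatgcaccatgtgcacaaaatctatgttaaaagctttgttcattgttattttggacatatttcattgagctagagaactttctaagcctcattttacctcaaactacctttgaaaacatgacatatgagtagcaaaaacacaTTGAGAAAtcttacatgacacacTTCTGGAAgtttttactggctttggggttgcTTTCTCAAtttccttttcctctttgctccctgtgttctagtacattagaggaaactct
Clec4e, chr6:123289822-123290121, minus strand: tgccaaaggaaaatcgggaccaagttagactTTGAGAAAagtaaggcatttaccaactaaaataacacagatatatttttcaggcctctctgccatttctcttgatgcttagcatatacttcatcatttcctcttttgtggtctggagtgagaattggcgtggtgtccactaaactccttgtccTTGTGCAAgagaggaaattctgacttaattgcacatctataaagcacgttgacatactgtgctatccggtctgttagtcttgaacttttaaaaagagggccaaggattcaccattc
The table of promoters matched all 9 genes. TTNCNNAA occurred in 7 of the 9 windows, all but Csf3r and Cxcr2, and in 40.7% of 32851 promoters of the same 300 bases. GAGGAAG occurred in 3 of the 9 (S100a8, Csf3r and Clec4d), and in 13.6% of all promoters. The stricter C/EBP motif TTGCNNCAA, which is not in capitals, occurred in 1 (Csf3r), and in 2.08% of all promoters. The AP-1 motif TGANTCA occurred in 0 of the 9 and in 7.81% of all promoters, and the NF-kB motif in 2 (Csf3r and Cxcr2) and in 50.8% of all promoters. These matches are descriptions of letters and show no binding.

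Library totals were 3052940 to 10587555 counts, with the antibody groups deeper (6139216 to 10587555) than the other groups (3052940 to 5840995). The lowest total, in Normal replicate 2, is that of a library in which all 7 receptor genes were at 0. That library had the highest S100a8 and S100a9 of the Normal group, at 0.655 CPM each, and the part of depth in its zeros was not tested. A table of the whole series gives 16 of its 24 columns a name of another library and another group than the samples' own files, and the files were used throughout. By the files, 10 T cell genes summed to 53.8 to 202 CPM (counts scaled to a common library total) in the 5 groups with transferred T cells and to 10.2 to 13.6 CPM in Normal. The table exchanges Isotype replicates 3 and 4 with anti-TNF replicates 1 and 2, so the antibody comparison depends on which names are right. Transcripts of 10 exocrine pancreas genes summed to 6500 CPM in Vehicle replicate 4 and 4980 CPM in Isotype replicate 1, and to 13.9 to 450 CPM in the other 22 libraries. As a check of the tissue, 10 colon epithelium genes summed to 11400 to 20300 CPM over the libraries. A list of 12 squamous epithelium genes summed to 72.3 to 179 CPM in Vehicle, 60.4 to 178 CPM in MEKi 0.3, 42.4 to 50.4 CPM in MEKi 1, 26.5 to 106 CPM in anti-TNF, 59.3 to 78.0 CPM in Isotype and 6.99 to 32.7 CPM in Normal. Of its 4 genes that could be tested, edgeR called 1 higher in Vehicle than in Normal, where it called 23.1% of all genes higher. This was Sprr1a, which encodes a protein of the cornified envelope (120 ± 48.5 CPM in Vehicle and 8.91 ± 10.3 CPM in Normal). Krt5, a basal keratin named after its values were seen, had at most 0.569 CPM in any library. The part of squamous cells in the levels of the 9 genes was not tested.

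All 9 genes rose in the Vehicle and Isotype groups. In Vehicle against Normal, edgeR's quasi-likelihood test with Benjamini-Hochberg adjustment called 9 of 9 higher at an adjusted p under 0.05, where it called 23.1% of 14773 genes higher. In Isotype against Normal it also called 9 of 9 higher, against 20.9% of all genes. Both comparisons share the Normal libraries. In 8 of the 9 genes every Vehicle library exceeded every Normal library (23.3% of all genes did so), and in Isotype against Normal in 9 of 9 (20.3% of all genes). RNA of whole tissue cannot tell more or fewer cells that carry these transcripts from more or less RNA per cell. The summed level of 18 monocyte and macrophage genes also differed, at 3060 to 4930 CPM in Vehicle, 2080 to 2760 CPM in Isotype and 800 to 865 CPM in Normal, and its part in the result was not tested. Of these 18 genes, edgeR called 12 higher and 1 lower in Vehicle against Normal, where 3416 of the 6853 genes called were higher. Lyz2 made up much of the sum in Vehicle, by its mean given further below.

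S100a8 had 197, 245, 160 and 253 CPM in the 4 Vehicle libraries, 277, 206, 283 and 159 CPM in the Isotype libraries, and 0, 0.655, 0.187 and 0 CPM in the Normal libraries. The Normal values rest on 3 counts in all. The ratio of Vehicle to Normal was therefore 1250, with a 95% exact counting interval of 429 to 6080, and that of Isotype to Normal was 1280 (439 to 6230). These intervals cover counting error and not the spread between libraries. S100a9, the partner of S100a8, had 289, 388, 214 and 693 CPM in Vehicle, 394, 199, 606 and 106 CPM in Isotype, and 0, 0.655, 0.373 and 0 CPM in Normal. Its log2 fold change was 10.60 ± 1.78 (SE) in Vehicle against Normal, with an edgeR adjusted p of 0.000153.

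Among the receptors, Csf3r had the highest mean CPM, which is not scaled to transcript length. It had 67.3 ± 21.9 CPM in Vehicle, 69.9 ± 26.7 CPM in Isotype and 2.13 ± 1.45 CPM in Normal (SD, n = 4 each). It was the receptor with the most counts in Normal, 42 in all, and its log2 fold change in Vehicle against Normal was 4.82 ± 0.64. Cxcr2, the chemokine receptor, had no count in any Normal library. Against a floor of 3 counts over that group it was at least 46.2-fold higher in Vehicle and at least 51.3-fold higher in Isotype. Fpr1 had 1 count in Normal, and the ratio of Vehicle to Normal was 81.3 (95% exact counting interval 14.2 to 3250). Fpr2 had 21.2 ± 11.5 CPM in Vehicle and 0.505 ± 0.423 CPM in Normal, a log2 fold change of 5.16 ± 0.71.

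The lectins and Trem1 showed the same direction with a wider spread. Clec4d had 12.4, 9.48, 7.07 and 37.7 CPM in Vehicle, against 0.649, 0, 0.747 and 0 CPM in Normal (log2 fold change 5.30 ± 0.87). Clec4e had 15.8, 9.48, 3.90 and 31.8 CPM in Vehicle, against 0, 0, 0.187 and 0.617 CPM in Normal (log2 fold change 5.91 ± 1.06). Replicate 4 was the highest Vehicle library for both lectins. Trem1 had 7.25, 3.41, 0.975 and 10.1 CPM in Vehicle, against 0, 0, 0.187 and 1.44 CPM in Normal, and is the gene whose groups overlapped, since Normal replicate 4 lay above Vehicle replicate 3. Its log2 fold change of 3.50 ± 0.85 had an edgeR adjusted p of 0.00199. Between the control groups with colitis, Isotype and Vehicle, edgeR called 0 of 9 where it called 2.99% of all genes, 0 of 9 had an unadjusted p under 0.05 where 17.4% of all genes did, and DESeq2 also called 0 of the 9. The log2 fold changes of Isotype against Vehicle were -0.79 to 0.23.

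**Figure D1:**
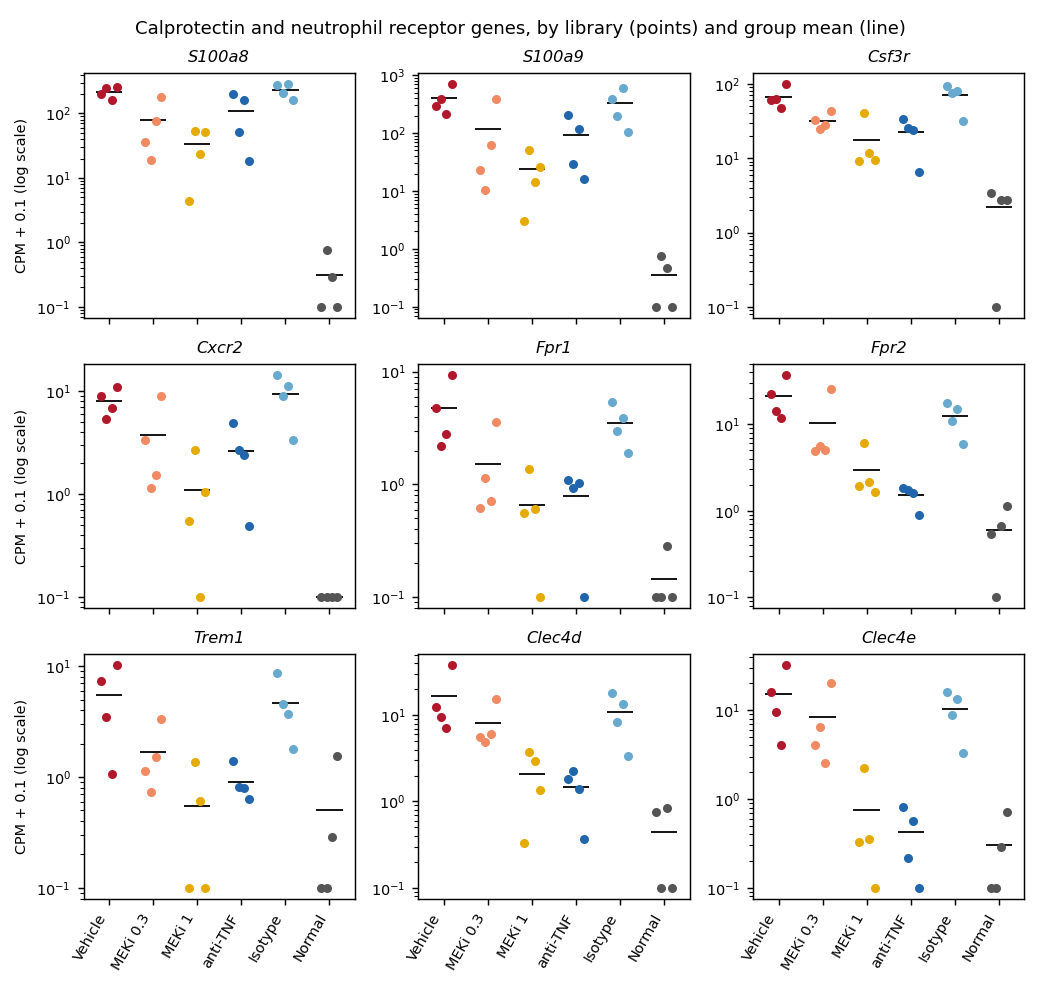
Level of each of the 9 genes in every library (points) with the group mean (line), in CPM plus 0.1 on a log scale, by group. The group means of Vehicle and Isotype are highest and those of Normal lowest for all 9 genes, with single libraries overlapping. Clec4e fell to 0.655 CPM on average in MEKi 1, against 15.2 CPM in Vehicle, while S100a8 in anti-TNF ranged from 17.9 to 203 CPM.

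Levels can be compared between genes only per length of transcript. Per kilobase of exon in GENCODE M21, S100a9 averaged 759 ± 403 CPM in Vehicle and S100a8 308 ± 62.7 CPM (SD, n = 4). Csf3r followed at 18.7 ± 6.07, Fpr2 at 16.4 ± 8.85 and Clec4d at 10.4 ± 8.88 CPM per kilobase. The lowest were Fpr1 at 3.54 ± 2.46, Clec4e at 3.07 ± 2.43, Cxcr2 at 2.63 ± 0.809 and Trem1 at 1.82 ± 1.35 CPM per kilobase. The calprotectin genes thus stood above every receptor by more than the spread, while Csf3r, Fpr2 and Clec4d did not differ from each other beyond theirs, nor did the 4 lowest. In Normal the order differed: Csf3r was highest at 0.591 ± 0.402 CPM per kilobase, followed by S100a9 at 0.493 ± 0.61, Fpr2 at 0.390 ± 0.327 and S100a8 at 0.303 ± 0.446, none of which differed beyond its spread.

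All 9 genes fell in MEKi 1. In MEKi 1 against Vehicle, edgeR called 9 of 9 genes lower, where it called 4.51% of all genes lower. Their log2 fold changes were -4.31 to -1.87 with a median of -2.89, against a median of 0 over all 14773 genes, and the mean level left in MEKi 1 was 5.03% of Vehicle for Clec4e, the least, and 27.3% for Csf3r, the most, as fitted. In 8 of the 9, every MEKi 1 library lay below every Vehicle library (10.3% of all genes did so). The call depends on single libraries. Without MEKi 1 replicate 1, the lowest library for S100a8 and S100a9, 0 of 9 passed, with adjusted p of 0.0618 to 0.111. It was 1 without Vehicle replicate 4, 2 without MEKi 1 replicate 3 and 3 without Vehicle replicate 1, and 2 (Fpr2 and Clec4e) without the libraries above 1000 CPM of pancreas transcripts. Calls over all genes, 1565 with every library, dropped as well: to 43 without MEKi 1 replicate 1, 128 without Vehicle replicate 4, 220 without MEKi 1 replicate 3, 324 without Vehicle replicate 1 and 391 without the pancreas-rich libraries. Over the 8 fits that left out a library, the log2 fold changes stayed between -6.22 (Clec4e) and -1.65 (Csf3r).

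Both calprotectin genes fell. S100a8 had 4.33, 53.4, 23.2 and 51.6 CPM in MEKi 1, against 197, 245, 160 and 253 CPM in Vehicle, with no overlap. Its log2 fold change was -2.64 ± 0.75 (edgeR adjusted p = 0.0353, and 0.00859 to 0.77 over its alternatives). S100a9 had 2.97, 51.5, 14.3 and 25.8 CPM in MEKi 1, against 289, 388, 214 and 693 CPM in Vehicle, also with no overlap. Its log2 fold change was -4.01 ± 1.08 (edgeR adjusted p = 0.0297, and 0.0026 to 0.773 over its alternatives). The highest p among the alternatives came, for each of the 9 genes, from the names in the series table.

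Csf3r, the G-CSF receptor, had 9.12, 40.8, 11.5 and 9.45 CPM in MEKi 1, against 61.4, 62.8, 46.8 and 98.4 CPM in Vehicle. MEKi 1 replicate 2 thus came close to Vehicle replicate 3. The log2 fold change of -1.87 ± 0.51 was the smallest of the 9 (edgeR adjusted p = 0.0289). Cxcr2 had 0.456, 2.57, 0 and 0.945 CPM in MEKi 1, against 8.96, 5.31, 6.82 and 11 CPM in Vehicle (log2 fold change -2.89 ± 0.79, edgeR adjusted p = 0.0308). Fpr1 and Fpr2, the formyl peptide receptors, fell as well, with log2 fold changes of -2.87 ± 0.72 and -2.80 ± 0.57 (edgeR adjusted p = 0.0203 and 0.0112). Fpr2 had 1.82, 5.99, 2.04 and 1.57 CPM in MEKi 1, against 22.2, 14, 11.7 and 37.1 CPM in Vehicle.

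Trem1 and the lectins had the lowest log2 fold changes among the receptors, though genes were not tested against each other. Trem1 had 0, 1.28, 0.510 and 0 CPM in MEKi 1, against 7.25, 3.41, 0.975 and 10.1 CPM in Vehicle, and here 1 MEKi 1 library lay above the lowest Vehicle library (log2 fold change -3.39 ± 0.85, edgeR adjusted p = 0.0204). Clec4d had 0.228, 3.63, 2.81 and 1.26 CPM in MEKi 1, against 12.4, 9.48, 7.07 and 37.7 CPM in Vehicle (log2 fold change -2.99 ± 0.70, edgeR adjusted p = 0.0163). Its neighbour Clec4e had 0.228, 2.14, 0.255 and 0 CPM in MEKi 1, against 15.8, 9.48, 3.90 and 31.8 CPM in Vehicle. At -4.31 ± 0.90, Clec4e had the lowest log2 fold change of the 9 (edgeR adjusted p = 0.0115), and its 12 counts over the MEKi 1 group set the precision.

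At 0.3 mg/kg no gene of the 9 passed. In MEKi 0.3 against Vehicle, edgeR called 0 of 9, where it called 0.00677% of all genes, 1 in number. The log2 fold changes were all negative, at -1.79 to -0.90 with a median of -1.14, against 0.01 over all genes. At an unadjusted p under 0.05, 4 of 9 were lower (Csf3r, Fpr1, Fpr2 and Trem1), as were 6.84% of all genes, and DESeq2 called 0 of 9. In these groups the deviations of same-numbered libraries correlated weakly, above 0.1 in every pair. Single pairs in the other comparisons ran from -0.395 to 0.342, so this does not show that the libraries were paired. The fit of only these groups called 0 of 9. With the replicate number as a block it called 4 of 9, namely Csf3r, Fpr1, Fpr2 and Clec4d, with adjusted p of 0.0147 to 0.0493. That blocked fit called 2.97% of 13635 genes, and its 4 calls depend on a pairing that the labels do not state. Csf3r was the gene with no overlap, with 33.0, 24.7, 27.7 and 42.4 CPM in MEKi 0.3, against 61.4, 62.8, 46.8 and 98.4 CPM in Vehicle, a separation that 3.53% of all genes showed in this direction.

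MEKi 0.3 replicate 4 stood apart from the other libraries of its group. It was the highest of the 4 for all 9 genes, as was Vehicle replicate 4 in its group. S100a8 had 36.5, 18.9, 75.2 and 182 CPM in MEKi 0.3, and S100a9 had 22.9, 10.3, 61.4 and 383 CPM, so that replicate 4 lay within the Vehicle range of each. Without it, edgeR called 1130 genes in all in place of 1, among them 3 of the 9, all lower, S100a9 at a log2 fold change of -3.61, Fpr1 at -2.63 and Fpr2 at -2.03, with adjusted p of 0.0264 to 0.0393. That library held 3570 CPM of the monocyte and macrophage genes, 172 CPM of the T cell genes and 178 CPM of the squamous epithelium genes, against 2400 to 2700, 117 to 132 and 60.4 to 67.3 CPM in the other 3, and the part of each in the result was not tested.

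Between the doses, edgeR called 0 of 9 genes in MEKi 1 against MEKi 0.3, 0 of all genes, and DESeq2 also called 0 of the 9. The log2 fold changes were -3.41 to -0.82, and 4 of 9 had an unadjusted p under 0.05 (2.82% of all genes were lower by that rule). The lectins were the genes with no overlap. Clec4d had 0.228, 3.63, 2.81 and 1.26 CPM in MEKi 1, against 5.48, 4.82, 5.94 and 15.4 CPM in MEKi 0.3, and Clec4e 0.228, 2.14, 0.255 and 0 CPM, against 3.94, 6.29, 2.46 and 20.1 CPM, a separation shown in this direction by 1.32% of all genes. The log2 fold change of Clec4e between doses was -3.41 ± 0.92, with an unadjusted p of 0.00131 and an adjusted p of 1.

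In anti-TNF all 9 genes had a negative log2 fold change against Isotype, and none passed in the fit of all groups. In anti-TNF against Isotype, edgeR called 0 of 9, where it called 0.0203% of all genes, 3 in number. The log2 fold changes were -4.89 to -1.06 with a median of -2.23, against 0 over all genes. At an unadjusted p under 0.05, 7 of 9 were lower, all but S100a8 and S100a9, as were 5.51% of all genes, and DESeq2 called 3 of 9 (Fpr2, Clec4d and Clec4e) and 77 genes in all. Leaving out Isotype replicate 4, the lowest library of its group for all 9 genes, edgeR called the same 3 genes, Fpr2, Clec4d and Clec4e, with adjusted p of 0.0273 to 0.0455, and 34 genes in all. Under the names in the series table, the log2 fold change of S100a9 was 0.14.

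The libraries of the antibody groups did not overlap for the lectins, the formyl peptide receptors and Trem1, and overlapped for the other 4 genes. Whether these genes differ from each other in their change was not tested. Clec4e had 0.717, 0.119, 0.468 and 0 CPM in anti-TNF, against 15.9, 8.80, 13.2 and 3.21 CPM in Isotype, with no overlap (log2 fold change -4.89 ± 0.91, edgeR adjusted p = 0.0632, and 0.00082 to 0.999 over its alternatives). Fpr2 had 1.72, 1.66, 1.52 and 0.795 CPM in anti-TNF, against 17.6, 10.7, 15.0 and 5.86 CPM in Isotype (log2 fold change -3.06 ± 0.57, edgeR adjusted p = 0.0632). All 4 of its anti-TNF libraries lay below every Isotype library. Fpr1, Trem1 and Clec4d also had no overlap, which makes 5 of 9, where 3.61% of all genes were lower in this way. Clec4d had 1.72, 2.14, 1.29 and 0.265 CPM in anti-TNF, against 17.8, 8.32, 13.5 and 3.31 CPM in Isotype (log2 fold change -2.93 ± 0.67, edgeR adjusted p = 0.164).

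S100a8 had 203, 52.1, 164 and 17.9 CPM in anti-TNF, against 277, 206, 283 and 159 CPM in Isotype, and its groups overlapped. Its log2 fold change was -1.06 ± 0.69 (edgeR adjusted p = 0.592). S100a9 had 205, 28.7, 119 and 16 CPM in anti-TNF, against 394, 199, 606 and 106 CPM in Isotype (log2 fold change -1.82 ± 0.97, edgeR adjusted p = 0.504). Replicates 1 and 3 of anti-TNF were the high ones for both genes, and the library with the lowest value was replicate 4. Csf3r and Cxcr2 had log2 fold changes of -1.62 ± 0.49 and -1.85 ± 0.65, near that of S100a9, and their groups overlapped as well.

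**Figure D2:**
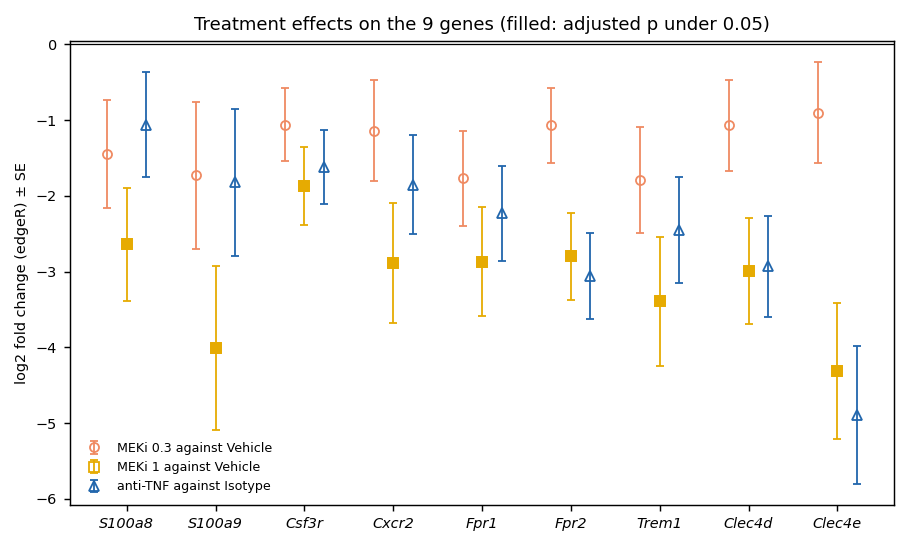
The log2 fold change of each of the 9 genes with its standard error in MEKi 0.3 against Vehicle, MEKi 1 against Vehicle and anti-TNF against Isotype, as fitted by edgeR. Filled symbols have an adjusted p under 0.05, and are the 9 of MEKi 1 against Vehicle. Clec4e has the lowest value in MEKi 1 (-4.31) and in anti-TNF (-4.89), and S100a8 the highest in anti-TNF (-1.06).

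Whether the inhibitor at 1 mg/kg and the antibody differed in their effect was tested as the difference between MEKi 1 against Vehicle and anti-TNF against Isotype. EdgeR called 0 of 9 genes, where it called 0.0135% of all genes, 0 of 9 had an unadjusted p under 0.05 where 4.93% of all genes did, and DESeq2 called 0 of 9. The differences were -2.19 ± 1.38 for S100a9 and -1.58 ± 1.00 for S100a8, and 0.57 ± 1.35 for Clec4e and 0.26 ± 0.78 for Fpr2 (log2, SE). These errors leave room for differences of either sign in S100a9, S100a8, Clec4e and Fpr2 alike. The misses do not show that the treatments act alike.

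The treated groups were also set against Normal, which is shared by these comparisons. In MEKi 0.3, 8 of 9 genes were higher than in Normal, all but Trem1, where edgeR called 10.8% of all genes higher. In MEKi 1, 3 of 9 were higher, S100a8, S100a9 and Csf3r (8.06% of all genes), and in anti-TNF 4 of 9, the same 3 and Cxcr2 (12.5% of all genes). The calprotectin genes thus stayed above Normal in each treated group. In MEKi 1 the call of S100a9 was near the threshold (edgeR adjusted p = 0.0325). It held in 2 of the 8 fits that left out a library (edgeR adjusted p of 0.0218 to 0.107), and that of S100a8 in all 8. The ratio of S100a8 to Normal was 423 (95% exact counting interval 144 to 2050) in MEKi 0.3, 193 (65.6 to 938) in MEKi 1 and 633 (217 to 3070) in anti-TNF.

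The lectins, Fpr2 and Trem1 came nearest to Normal. Clec4e averaged 0.655 ± 0.995 CPM in MEKi 1 and 0.326 ± 0.328 CPM in anti-TNF, against 0.201 ± 0.291 CPM in Normal (SD, n = 4 each), which is 12 and 10 counts, against 4. Its edgeR adjusted p against Normal was 0.514 in MEKi 1 and 0.856 in anti-TNF. Fpr2 averaged 2.86 ± 2.09 CPM in MEKi 1 and 1.42 ± 0.428 CPM in anti-TNF, against 0.505 ± 0.423 CPM in Normal, and in MEKi 1 all 4 libraries exceeded all Normal libraries without passing the test (log2 fold change 2.36 ± 0.83, adjusted p = 0.0616). Trem1 averaged 0.448 CPM in MEKi 1 and 0.809 CPM in anti-TNF, against 0.407 CPM in Normal. Remaining differences of Clec4e and Trem1 were not detectable at this depth, which does not show a return to Normal. DESeq2 called 6 of 9 in MEKi 1 against Normal, adding Cxcr2, Fpr2 and Clec4d. Over all genes it called 2323 in either direction, where edgeR called 1898.

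The 2 calprotectin genes summed to 375 to 946 CPM in Vehicle, 29.1 to 565 CPM in MEKi 0.3, 7.30 to 105 CPM in MEKi 1, 33.9 to 409 CPM in anti-TNF and 264 to 889 CPM in Isotype. The 7 receptors summed to 79.9 to 235 CPM in Vehicle, 44.0 to 119 CPM in MEKi 0.3, 12.3 to 57.7 CPM in MEKi 1, 8.35 to 45.3 CPM in anti-TNF and 50.4 to 172 CPM in Isotype. The calprotectin sums of anti-TNF and Isotype overlapped, and the receptor sums did not. Csf3r had the highest mean count of the 7 receptors in each group.

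The ratio of S100a9 to S100a8, in counts per kilobase of exon, was looked at after the values were seen and is given with no test. It was 1.95, 2.10, 1.78 and 3.65 in the Vehicle libraries, 0.836, 0.724, 1.09 and 2.81 in MEKi 0.3, and 0.910, 1.28, 0.818 and 0.665 in MEKi 1. The MEKi 1 ratios lay below all Vehicle ratios. In the antibody groups it was 1.34, 0.733, 0.963 and 1.19 in anti-TNF, against 1.89, 1.28, 2.85 and 0.885 in Isotype, which overlap. Per length, S100a9 was thus the more abundant of the pair in every Vehicle library, and S100a8 in 3 of 4 MEKi 1 libraries.

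**Figure D3:**
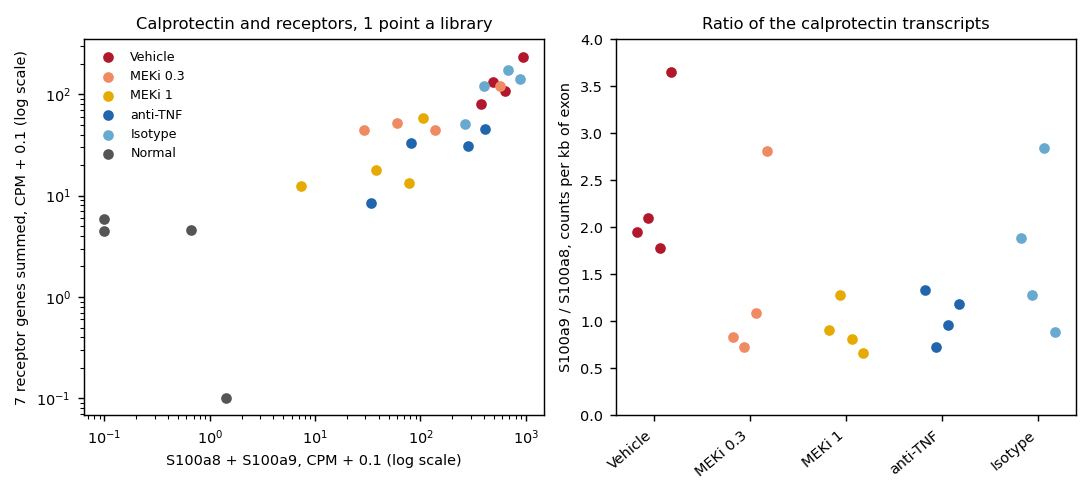
Left, the summed level of the 7 receptors against that of S100a8 and S100a9, each in CPM plus 0.1 on log scales, 1 point a library and 1 colour a group. Right, the ratio of S100a9 to S100a8 in counts per kilobase of exon, by library. The receptor sums are 8.35 to 45.3 CPM in anti-TNF and 50.4 to 172 CPM in Isotype, and the ratio is 1.78 to 3.65 in Vehicle, against 0.665 to 1.28 in MEKi 1.

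The libraries that were high for a gene were mostly high for all 9. Vehicle replicate 4, MEKi 0.3 replicate 4 and MEKi 1 replicate 2 were each the highest of their group for all 9 genes, and anti-TNF replicate 1 for 8. Isotype replicate 1 was the highest for 7. Anti-TNF replicate 4 and Isotype replicate 4 were each the lowest of their group for all 9. Since Vehicle replicate 4 and Isotype replicate 1 also hold the pancreas transcripts, the counts of genes called without them are given: 9 of 9 in Vehicle and in Isotype against Normal, 0 of 9 in anti-TNF against Isotype, and the 2 of 9 in MEKi 1 against Vehicle stated above.

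Genes for ligands of these receptors were also followed. Of 13 ligand and recruiting genes, 9 could be tested, and in Vehicle against Normal 7 were higher and 2 lower. Of 14773 genes, edgeR called 6853 there in either direction, 3416 of them higher (23.1% of all genes). Cxcl1, a ligand of Cxcr2, had 17.0 ± 5.42 CPM in Vehicle and 0.255 ± 0.26 CPM in Normal (log2 fold change 5.78 ± 0.89, edgeR adjusted p = 4.6e-05). Pglyrp1, a reported ligand of Trem1, had 686 ± 129 CPM in Vehicle and 162 ± 36.5 CPM in Normal (2.05 ± 0.25, edgeR adjusted p = 1.21e-06), and Saa3, an acute-phase protein, 244 ± 125 CPM in Vehicle and 2.90 ± 1.30 CPM in Normal (6.39 ± 1.09, edgeR adjusted p = 0.000172). The lower ones were Saa1 and Saa2, also acute-phase proteins, at log2 fold changes of -2.16 ± 0.45 and -2.38 ± 0.47. Csf3, which encodes G-CSF, was too low to test, at 40 counts in Vehicle, 4 in MEKi 0.3, 0 in MEKi 1, 1 in anti-TNF, 43 in Isotype and 1 in Normal.

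In MEKi 1 against Vehicle, 3 of the 9 ligand genes tested were lower: Anxa1, a ligand of Fpr2 (131 ± 21.2 CPM in MEKi 1, 261 ± 39.1 CPM in Vehicle), Saa3 (30.9 ± 20.9 CPM in MEKi 1, 244 ± 125 CPM in Vehicle) and Cxcl2 (1.73 ± 1.69 CPM in MEKi 1, 14.9 ± 3.63 CPM in Vehicle). Their edgeR adjusted p were 0.0108, 0.0383 and 0.0444, and without MEKi 1 replicate 1 none of the list passed. The list's median log2 fold change was -1.67, and 4.51% of all genes were lower in MEKi 1 than in Vehicle. In anti-TNF against Isotype 0 of the 9 were called by edgeR, and its smallest p was that of Saa3, with 19.8 ± 13.5 CPM in anti-TNF and 166 ± 102 CPM in Isotype (log2 fold change -3.05 ± 0.85, adjusted p = 0.223). Cxcl5 was high in the same library as the members, with 10.7 to 372 CPM in MEKi 0.3, the highest value in replicate 4.

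**Figure D4:**
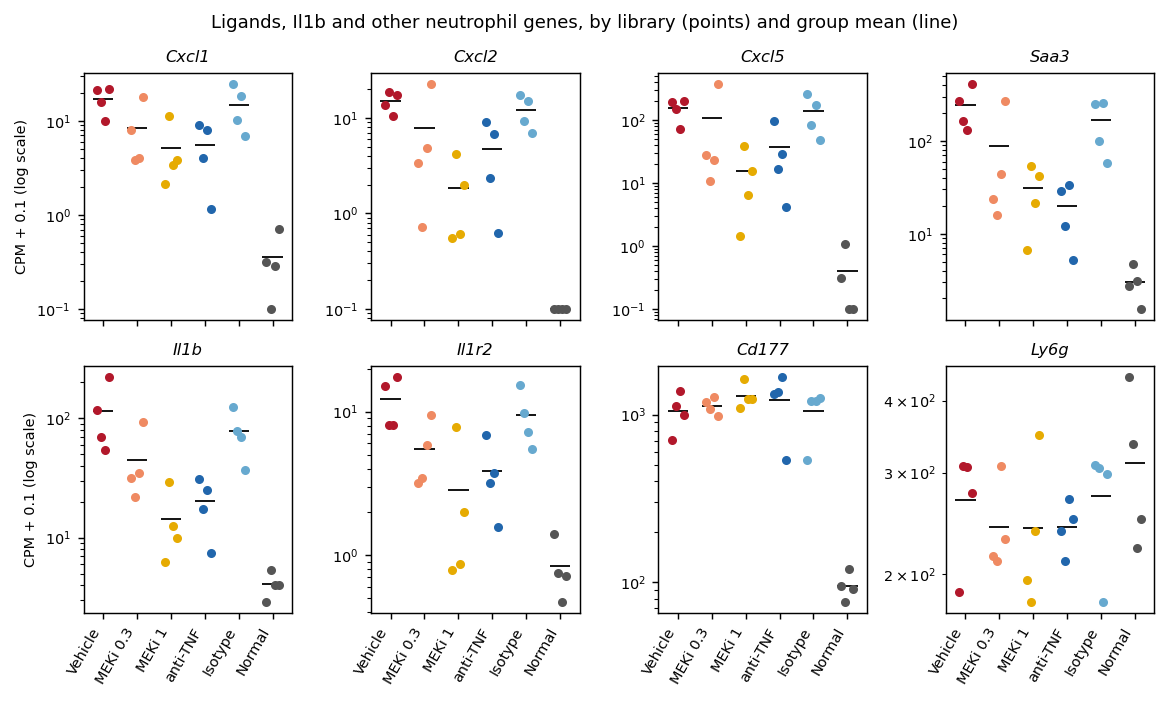
Ligand genes (Cxcl1, Cxcl2, Cxcl5, Saa3), Il1b and other genes used as neutrophil markers (Il1r2, Cd177, Ly6g), in CPM plus 0.1 on a log scale, by library (points) and group mean (line). Ligands, Il1b and Il1r2 are high in Vehicle and Isotype and lower on average in the treated groups. Cd177 averages 1060 CPM in Vehicle and 1300 CPM in MEKi 1, and Ly6g 269 CPM in Vehicle and 312 CPM in Normal.

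Fewer of the signalling partners passed. Of 14 genes for calprotectin receptors and for lectin or TREM signalling, all tested, 10 were higher in Vehicle than in Normal (23.1% of all genes). In MEKi 1 against Vehicle 3 were lower (4.51% of all genes), with a list median of -0.32. These 3 were Tyrobp, the DAP12 adapter (34.3 ± 16.3 CPM in MEKi 1, 117 ± 26.4 CPM in Vehicle, log2 fold change -1.72 ± 0.28, edgeR adjusted p = 0.00626), Fcer1g, the Fc receptor gamma chain (34.7 ± 10.3 CPM in MEKi 1, 107 ± 33.7 CPM in Vehicle, -1.58 ± 0.28, edgeR adjusted p = 0.00834), and Plcg2, a phospholipase downstream of both (-0.62 ± 0.20, edgeR adjusted p = 0.0475). Tlr4, a receptor of calprotectin, and Syk, the kinase that both adapters use, had log2 fold changes of 0.02 ± 0.17 and 0.06 ± 0.17 in that comparison. In anti-TNF against Isotype edgeR called 0 of 14, with Tyrobp at 30.3 ± 9.11 CPM in anti-TNF and 65.9 ± 24.7 CPM in Isotype (log2 fold change -1.09 ± 0.27, adjusted p = 0.164).

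Among 29 relatives of the members, 21 were tested. In Vehicle against Normal 17 were higher and 2 lower (S100a6 and S100g), and in MEKi 1 against Vehicle 1 was higher (S100g) and 9 lower. Over all genes, 23.1% were higher in Vehicle against Normal and 4.51% lower in MEKi 1 against Vehicle. Of 14773 genes, edgeR called 6853 in either direction in the first comparison, 3416 of them higher. In the second it called 1565, of which 667 were lower. The smallest p in MEKi 1 against Vehicle were those of Treml4, a TREM-like gene (1.56 ± 0.951 CPM in MEKi 1, 7.88 ± 1.90 CPM in Vehicle, edgeR adjusted p = 0.00936), Clec4n, which encodes the lectin dectin-2 (12.5 ± 6.42 CPM in MEKi 1, 38.1 ± 16.2 CPM in Vehicle, edgeR adjusted p = 0.0108), and Clec7a, which encodes dectin-1 (16.3 ± 12.2 CPM in MEKi 1, 63.5 ± 22.2 CPM in Vehicle, edgeR adjusted p = 0.0108). The median log2 fold change of the 21 was -0.82, and without MEKi 1 replicate 1 only 1 of them was lower. S100a6, another member of the S100 family, had 572 ± 38.6 CPM in Vehicle and 883 ± 82.9 CPM in Normal (edgeR adjusted p = 0.00672). Cxcr1, the close relative of Cxcr2, had 0 counts in 4 of the 6 groups, 7 in Isotype and 1 in MEKi 1.

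Of 16 other genes used as neutrophil markers, 15 were tested, and 14 of these were higher in Vehicle than in Normal (23.1% of all genes). In MEKi 1 against Vehicle 7 were lower (list median -1.76), where 4.51% of all genes were. That count of 7 was 0 without MEKi 1 replicate 1 or 3 or Vehicle replicate 1 or 4. Among the smallest p in MEKi 1 against Vehicle were those of Il1r2, a decoy receptor of IL-1 (2.76 ± 3.34 CPM in MEKi 1, 12.1 ± 4.82 CPM in Vehicle, edgeR adjusted p = 0.0289) and Padi4, an enzyme of chromatin release (4.63 ± 1.26 CPM in MEKi 1, 16.3 ± 14.8 CPM in Vehicle, edgeR adjusted p = 0.0343). Cd177 and Ly6g, of the same list, did not go with these. Cd177 had 1090 to 1620 CPM in MEKi 1 and 709 to 1390 CPM in Vehicle. Ly6g had 179 to 349 CPM in MEKi 1 and 186 to 308 CPM in Vehicle. Together they made up 89.1% to 95.6% of the list's sum in MEKi 1. In Normal, Ly6g had 222 to 439 CPM and Cd177 76.6 to 120 CPM, and which cells carry them was not tested. In anti-TNF against Isotype 0 of 15 were called, with a list median of -1.37. The granule genes of neutrophil precursors, Mpo, Elane, Prtn3 and Ctsg, were too low to test, and their sum was at most 8.85 CPM in any library.

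Genes of other cells moved in the same comparison, in which 4.51% of all genes were lower. Of 18 monocyte and macrophage genes, 8 were lower in MEKi 1 than in Vehicle (list median -0.88), among them Aif1 (16.5 ± 4.81 CPM in MEKi 1, 44.8 ± 7.81 CPM in Vehicle) and Lyz2 (959 ± 477 CPM in MEKi 1, 2440 ± 641 CPM in Vehicle), and of 10 T cell genes 5 were lower (list median -0.95), among them Lck (18.3 ± 5.21 CPM in MEKi 1, 39.8 ± 7.54 CPM in Vehicle). Without Vehicle replicate 4, 1 of the monocyte and macrophage genes and 0 of the T cell genes passed, and likewise without MEKi 1 replicate 1. The summed monocyte and macrophage level was 842 to 2740 CPM in MEKi 1 and 3060 to 4930 CPM in Vehicle, and 1070 to 1850 CPM in anti-TNF and 2080 to 2760 CPM in Isotype. The part of these cells in the levels of the 9 genes was not tested. Of 6 mast cell and eosinophil genes tested, 0 were called in MEKi 1 against Vehicle. Of 8 genes known to follow ERK activity, edgeR called 0 in MEKi 1 against Vehicle, with a list median of -0.30 and a summed level of 178 to 273 CPM in MEKi 1 and 232 to 282 CPM in Vehicle.

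The genes whose pattern was most like that of the set were sought over the 20 libraries of the 5 groups with transferred T cells. For each gene, log2 CPM was centred over these libraries, and likeness was the root mean square difference from the mean of the 9 genes. Il1b, which encodes interleukin-1 beta, was closest at 0.21 log2 units, nearer than any of the 9 genes to their own mean (0.50 to 0.99), and the median over 14773 genes was 1.46. Il1b had 6.16, 28.9, 12.5 and 9.76 CPM in MEKi 1, against 116, 69.2, 54.4 and 220 CPM in Vehicle, and 31.0, 17.1, 24.8 and 7.29 CPM in anti-TNF, against 125, 78.6, 69.9 and 37.0 CPM in Isotype. Since Il1b was chosen for its likeness over these libraries, these values are a description.

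The next closest were Il1f9, Ly6i, AB124611, Bst1, Lcn2, Slc7a11 and Alpl, at 0.48 to 0.52. The choice depended on the settings: of the 8 closest genes, 4 were shared without the anti-TNF group, 5 without the MEKi 1 group and 5 with a prior count of 0.5, where the lowest value was 0.35. Il1b was the closest in each of the 6 alternatives. Lcn2 encodes lipocalin 2, an iron-trapping protein of neutrophils and epithelium, with 52.4 ± 37.5 CPM in MEKi 1 and 234 ± 84.6 CPM in Vehicle (edgeR adjusted p = 0.0505). S100a8 alone was most like Cxcl2 (0.55), Wfdc18 (0.65) and Lcn2 (0.70), and Clec4e alone most like Gpr84 (0.74), Mmp3 (0.84) and Irg1 (0.84). Gpr84, a receptor for fatty acids on myeloid cells, had 0.134 ± 0.118 CPM in anti-TNF and 4.59 ± 1.92 CPM in Isotype, and was among the 3 genes called in that comparison (log2 fold change -4.92 ± 0.65, edgeR adjusted p = 0.000969). It also fell in MEKi 1, with 0.398 ± 0.369 CPM in MEKi 1 and 5.58 ± 2.62 CPM in Vehicle (-3.61 ± 0.62, edgeR adjusted p = 0.0067). Likeness over libraries rests in part on shared group differences and shared depth.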

How the data were processed

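The authors deposited a table of raw counts by gene symbol for each sample. Poly(A) RNA was cut with RNase III and sequenced on Ion Torrent, per the labels' protocols. The build is mm10, as the submitters' processing notes have it. Aligner, counting tool and strand setting: not given in the sources used here. Groups came from each file's own sample. The counts were tested unchanged by edgeR 4.0.16 (R 4.3.3) in 1 fit of the 24 libraries, with TMM scaling, genes kept by filterByExpr, and robust quasi-likelihood F tests. Over 14773 genes, p-values were adjusted by the Benjamini-Hochberg method separately in 11 comparisons, with a threshold of 0.05. The SE was taken from the log2 fold change and F. CPM uses the library total. No replicates were duplicates, with a chi-square per gene of at least 5.38. The script was tested on simulated data. Likeness used log2 CPM from edgeR with a prior count of 2.

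The 9 genes, the lists, the tests and most alternatives were chosen with earlier results of these data known, and the omission of pancreas-rich libraries was chosen after seeing the data. Named genes of a list are up to 3 with the smallest p, and others (Saa1, Saa2, Csf3, Cxcl5, Tlr4, Syk, S100a6, S100g, Cxcr1, Krt5) were picked after their values were seen. A gene that this rule names is not reported here. The labels number replicates alike without saying what they share. In MEKi 0.3 against Vehicle, deviations of same-numbered libraries correlated at 0.126, 0.125, 0.167 and 0.184 over genes, above 0.1 in every pair, and the blocked count is given there. In no other comparison did every pair exceed 0.1, and single pairs there ran from -0.395 to 0.342. That range covers the values of MEKi 0.3 against Vehicle. Whether libraries of different number correlate as much was not tested. Alternatives were DESeq2 1.42.0, other size factors, other filters, a length offset, fits of only the groups compared, the replicate block, the names of the series table and each library left out. Proteins of the 9 genes are not shown.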

Additional observations from a re-analysis of the deposited data

Results flagged for a closer look

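Of 54 groups of 4 values (9 genes in 6 groups), 9 held a library far from the other 3. A rate of about 1 in 20 would hold for independent values with a normal spread. The 9 genes moved together by library and some values rest on 1 count, so that rate does not apply here. Most of the 9 came from the same 2 libraries. MEKi 0.3 replicate 4 was far above the others of its group for S100a9 (383 CPM, the others 10.3 to 61.4), Fpr2 (25.5 CPM, the others 4.79 to 5.45) and Clec4d (15.4 CPM, the others 4.82 to 5.94). MEKi 1 replicate 2 was far above the others for Csf3r (40.8 CPM, the others 9.12 to 11.5), Fpr2 (5.99 CPM, the others 1.57 to 2.04) and Clec4e (2.14 CPM, the others 0 to 0.255). Anti-TNF replicate 4 was low for Fpr1, with 0 CPM where the others had 0.83 to 1. In Normal, replicate 3 had 0.187 CPM of Fpr1, which is 1 count, and replicate 4 had 1.44 CPM of Trem1, the others at most 0.187.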

How the results depend on the processing

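The calls against Normal in Vehicle (9) and Isotype (9) were the same without each library, and the count in MEKi 0.3 was 7 to 8, in MEKi 1 2 to 4 and in anti-TNF 4 to 5. MEKi 1 against Vehicle ranged from 0 to 9 when a library was left out, MEKi 0.3 against Vehicle from 0 to 3 and anti-TNF against Isotype from 0 to 3. MEKi 1 against Vehicle called 5 genes with no filter on low counts (773 genes in all). It called 2 without the libraries above 1000 CPM of pancreas transcripts (391 genes in all). DESeq2 called 3 in anti-TNF against Isotype (77 genes in all) and 6 in MEKi 1 against Normal (2323 genes in all).

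The fit of only the groups compared with the replicate block called 4 genes in MEKi 0.3 against Vehicle and 8 in anti-TNF against Isotype, all but S100a8, where it called 277 of 14512 genes (1.91%) and the numbers did not meet the rule for pairing (correlations 0.216, 0.086, 0.142 and 0.342). S100a9 was among the 8, at -2.17 with an adjusted p of 0.0294. The block changed no other call count by over 1.5 times.

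With the names of the series table, edgeR called 0 of the 9 genes in Vehicle, Isotype, MEKi 0.3, MEKi 1 and anti-TNF against Normal. It also called 0 of the 9 in MEKi 1 against Vehicle, and signs turned. Over all genes it called 0, 262, 0, 1, 207 and 0 in these comparisons. Those names place libraries with 117 and 132 CPM of T cell genes in the untreated Normal group. In MEKi 0.3 against Vehicle the log2 fold changes were then 0.96 (S100a8), 0.73 (S100a9), 1.21 (Csf3r), 0.80 (Cxcr2), 1.06 (Fpr1), 0.48 (Fpr2), 0.93 (Trem1), 0.25 (Clec4d) and 0.28 (Clec4e). In MEKi 1 against Vehicle they were 0.95 (S100a8), 1.10 (S100a9), 1.16 (Csf3r), 0.96 (Cxcr2), 1.66 (Fpr1), 0.76 (Fpr2), 0.95 (Trem1), 1.19 (Clec4d) and 0.68 (Clec4e). In MEKi 1 against MEKi 0.3 they were 0.37 (S100a9), 0.17 (Cxcr2), 0.60 (Fpr1), 0.28 (Fpr2), 0.02 (Trem1), 0.94 (Clec4d) and 0.40 (Clec4e), and in anti-TNF against Isotype S100a9 was 0.14. Without the libraries that the table names differently, 4 comparisons could be fitted. In Isotype against Normal 7 of the 9 genes were called (1033 genes in all). In anti-TNF against Isotype, MEKi 1 against Normal and anti-TNF against Normal 0 were called (1, 73 and 72 genes in all).

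Near Normal, signs depended on single libraries. Trem1 in MEKi 1 against Normal was -0.30, -0.17 and -0.19 without Normal replicates 1, 2 and 3 and 2.38 without Normal replicate 4, and -1.23 without MEKi 1 replicate 2. Clec4e in that comparison was -0.30 without MEKi 1 replicate 2 and 2.93 without Normal replicate 4. Clec4e in anti-TNF against Normal was -0.14 without anti-TNF replicate 1 and 1.80 without Normal replicate 4. Except for the names of the table, the cause of these moves was not tested. Receptor genes with 12 or fewer counts over a group set the limit of depth here.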

Other observations

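Cd177 and Ly6g, surface genes commonly used to mark mouse neutrophils, had another pattern than calprotectin and the receptors, which is given here as values. Ly6g had 186 to 308 CPM in Vehicle and 222 to 439 CPM in Normal, and these ranges overlap (log2 fold change -0.25 ± 0.23, edgeR adjusted p = 0.398). Cd177 rose in Vehicle, to 1060 ± 284 CPM, against 95.5 ± 18.1 CPM in Normal (SD, n = 4 each, log2 fold change 3.43 ± 0.32, edgeR adjusted p = 3.91e-08). In MEKi 1, where all 9 genes were lower than in Vehicle, it had 1300 ± 228 CPM, against 1060 ± 284 CPM in Vehicle (log2 fold change 0.33 ± 0.29, edgeR adjusted p = 0.445), and in anti-TNF 1220 ± 485 CPM, against 1050 ± 343 CPM in Isotype (0.23 ± 0.28, edgeR adjusted p = 0.806). Together these 2 genes made up 89.1% to 95.6% of the summed neutrophil list in MEKi 1 and 67.9% to 85.3% in Vehicle. The other 14 genes of the list summed to 59.3 to 221 CPM in MEKi 1 and 292 to 603 CPM in Vehicle. In Normal, Ly6g (222 to 439 CPM) and Cd177 (76.6 to 120 CPM) were present while Cxcr2, Mmp8 and Ngp had 0 counts and S100a8 had 3. Which cells carry Cd177 and Ly6g was not tested, so their levels are not read here as numbers of neutrophils.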
